A study of Mus musculus with 18 samples.

Results

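The cytosolic heat shock genes are a group of 9 mouse genes: Hspa1a and Hspa1b, which encode the stress-inducible HSP70; Hspa8, the constitutive HSP70; the HSP70 partners Hsph1, Dnajb1 and Bag3; Hsp90aa1, the inducible HSP90; Hspb1, the small heat shock protein HSP27; and Hsf1, the transcription factor that drives heat shock genes. They were chosen by symbol, as all probe sets annotated to these names. Of the 45101 probe sets on the array, 20 belonged to 8 of the 9 genes. Hsf1 was not analysed here. Each gene's values are those of 1 probe set, the one whose mean was highest among those above the median of all deposited values, an intensity of 18.1, on at least 3 arrays. That filter kept 17 of the 20 probe sets and 7 of the 9 genes, among 12257 genes tested. Each of the 7 chosen probe sets lay above the floor on all 18 arrays. The group was proposed with results of these arrays in view, among them the low Hspa1b level with apilimod at 3 h, so that contrast is described without a test.

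RAW cells, a mouse macrophage-like line, were cultured in DMEM medium and sampled at 0 h, 1 h, 3 h, 7 h and 22 h. The arms were medium alone, R848, R848 with apilimod and R848 with API09. R848 is a small-molecule agonist of Toll-like receptor 7, and its dose is written as 0.1 mM in the labels. Apilimod, an inhibitor of the lipid kinase PIKfyve, and API09, which the submitters describe as its inactive analog, were each given at 1 uM. Medium at 0 h had 2 arrays and every other arm had 1 array at each of 4 hours, 18 arrays in all. No label says whether samples came from separate cultures, so the p-values reflect nothing but the spread among the arrays at hand, possibly a technical one. No arm had apilimod or API09 without R848, so the compounds' effect on resting cells was not measured.

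Cytosolic chaperones hold nascent or unfolded proteins and release them in cycles of ATP binding and hydrolysis. J-proteins such as DNAJB1 deliver clients to HSP70 and stimulate its ATPase, while HSP110 (Hsph1) and BAG3 exchange its nucleotide. In unstressed cells HSF1 is held inactive by chaperones, and on proteotoxic stress it forms trimers that bind heat shock elements, arrays of inverted repeats of the letters GAA, upstream of genes such as Hspa1b. HSP70 and HSP90 are abundant in macrophages, in which inflammatory stimuli are also known to alter the transcription of inducible heat shock genes.

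The windows upstream of the start site are shown for the HSP70 pair and for Hsph1 and Hspb1, because these hold the simplest form of that repeat and the HSP70 pair is nearly the same sequence. They are the 250 bases before the start in RefSeq on GRCm38.p6, written 5′ to 3′ on the gene's strand, with each match in capitals. They lie upstream of the transcript.
Hspa1a, chr17:34972157-34972406, minus strand: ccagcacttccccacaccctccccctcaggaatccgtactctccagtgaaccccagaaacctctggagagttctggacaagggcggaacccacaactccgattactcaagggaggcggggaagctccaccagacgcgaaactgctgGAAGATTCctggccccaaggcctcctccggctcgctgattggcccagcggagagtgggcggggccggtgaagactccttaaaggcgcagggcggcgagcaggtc
Hspa1b, chr17:34959239-34959488, minus strand: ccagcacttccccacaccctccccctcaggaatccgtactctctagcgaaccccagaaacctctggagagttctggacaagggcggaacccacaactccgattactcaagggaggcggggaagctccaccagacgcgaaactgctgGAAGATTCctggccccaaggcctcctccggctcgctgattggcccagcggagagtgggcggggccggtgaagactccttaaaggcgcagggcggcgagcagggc
Hsph1, chr5:149636337-149636586, minus strand: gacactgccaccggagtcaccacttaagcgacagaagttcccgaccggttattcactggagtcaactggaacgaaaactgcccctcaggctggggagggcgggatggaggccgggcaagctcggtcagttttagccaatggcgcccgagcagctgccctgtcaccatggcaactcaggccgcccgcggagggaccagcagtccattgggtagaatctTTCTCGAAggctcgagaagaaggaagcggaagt
Hspb1, chr5:135887669-135887918, plus strand: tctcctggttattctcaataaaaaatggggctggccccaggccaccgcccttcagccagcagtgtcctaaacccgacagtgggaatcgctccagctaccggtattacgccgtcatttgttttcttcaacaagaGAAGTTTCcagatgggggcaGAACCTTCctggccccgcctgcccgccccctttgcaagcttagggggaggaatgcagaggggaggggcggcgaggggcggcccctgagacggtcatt

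The motifs searched were GAANNTTC and TTCNNGAA, each its own reverse complement and therefore read on both strands at once. The Hspa1a and Hspa1b windows each held GAAGATTC at bases 147 to 154, counted from 1 at the window's 5′ end. The Hsph1 window held TTCTCGAA, and the Hspb1 window held both GAAGTTTC and GAACCTTC. Of 32851 windows of the same length in the table, 6.69% held GAANNTTC, 7.17% held TTCNNGAA and 12.8% held either. The longer motifs GAANNTTCNNGAA and TTCNNGAANNTTC, which contain the shorter ones, were in 0.466% of windows and in none of the 8 windows of the 6 heat shock genes that matched the table. The Dnajb1 and Bag3 windows held none of these motifs. The Dnajb1 window at chr8:83608298-83608547 begins past the end of that gene's other window (83608174), so it lies downstream of that start. The Hspa1a and Hspa1b windows were identical at 247 of 250 bases (98.8%), with the differences C44T, T47C and T249G (Hspa1a base first, same numbering). The genes' transcripts are also known to be near-identical, so probes for one may read the other, and the values given for Hspa1b are uncertain in that respect.

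The arrays were similar in overall brightness, with medians of 17.5 to 19.2, except that the R848+API09 array at 22 h stood apart. Its upper quartile was 87.0, against 101 to 104 on the other R848 arrays at 22 h and 110.5 to 118.6 elsewhere. Its 18S control probe sets had the highest mean log2 intensity (10.53, against 7.94 to 10.14 elsewhere), and its ratio of 3′ to 5′ beta-actin signal was also highest (1.40, against 1.08 to 1.30). All 8 macrophage markers listed were measured, and their summed intensity ranged from 36658 to 46639. They differed widely, with Lyz2 at 14533 to 17985, Cd68 at 4778 to 8931, Itgam at 97.5 to 1251 and Mrc1 around the floor at 11.1 to 28.3. No probe set for the 3 B cell markers passed the filter, and the fibroblast markers had 1 of 5 genes measured, at 18.9 to 35.7. The epithelium markers had 2 of 4 measured, Epcam (42.9 to 61.0) and Krt8 (19.9 to 26.8). The T cell markers had 2 of 3 measured, Cd3e (25.1 to 39.4) and Cd3d (13.9 to 24.2). Values below are deposited intensities, and differences are on the log2(intensity + 16) scale, which understates changes of dim genes.

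On the chosen probe sets Hspa1b, the inducible HSP70, moved most of the 7 genes. R848 raised it 3.09-fold over medium at 3 h, it was level with medium at 7 h, and at 22 h it was 4.78-fold lower. With apilimod present the 3 h level was 16.3-fold below that of R848 without it, at 7 h it was still 3.00-fold below, and by 22 h it was 2.88-fold above. The other genes' chosen probe sets moved less: Bag3 rose with R848 at 7 h and was lower with apilimod, and Hspa8 and Hsph1 fell at 22 h with R848. The Hspa8 fall did not pass on the next bright probe sets of that gene. A second Dnajb1 probe set fell more at 22 h than Hspa1b did. It was at 465 in medium, 114 with R848 and 68.6 with R848+API09, while the chosen Dnajb1 probe set did not pass there.

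Hspa1a's lone probe set lay between 5.38 and 7.37 on the 18 arrays, below the floor on every one of them, with a median of 6.15. It did not pass the filter and is not described further.

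Hspa1b was read by 3 probe sets, of which the brightest is used unless stated. In medium it was at 235 and 211 at 0 h, 116 at 1 h, 166 at 3 h, 254 at 7 h and 123 at 22 h. With R848 alone it was at 177, 543, 218 and 24.9 at 1 h, 3 h, 7 h and 22 h. With R848+API09 it was at 161, 480.0, 280.0 and 26.7 at those hours. Both stimulated arms without apilimod therefore held the highest levels at 3 h and the lowest at 22 h, outside the range of the medium arrays at both hours. With R848+apilimod it was at 176, 31.4, 83.0 and 74.2. That arm lay beside the other stimulated arms at 1 h and below every medium array from 3 h onward. Over all arrays the level spanned 21.8-fold, against 2.20-fold within medium.

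**Figure D1:**
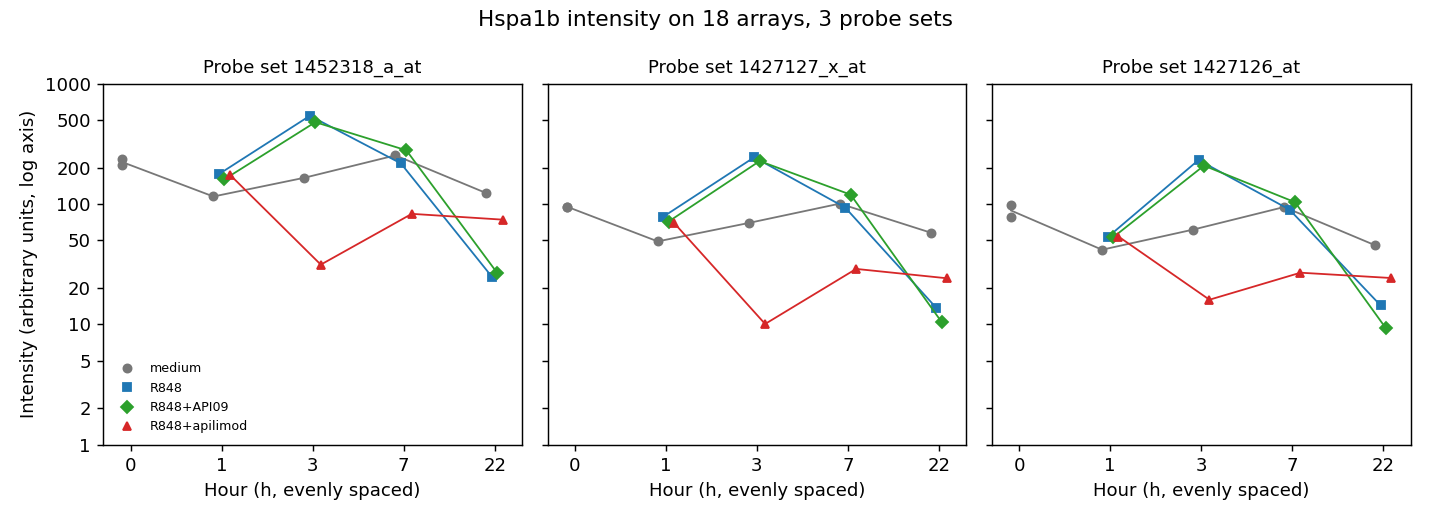
Intensity of the 3 Hspa1b probe sets (log axis) against hour, evenly spaced, with 1 point per array and 1 line per arm (medium, R848, R848+API09, R848+apilimod). On the brightest probe set R848 and R848+API09 peak at 543 and 480.0 at 3 h and end at 24.9 and 26.7, while R848+apilimod is at 31.4 at 3 h and 74.2 at 22 h.

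For the R848 comparison, each hour's 2 stimulated arrays without apilimod (R848 and R848+API09, called the R848 controls) were pooled and set against that hour's single medium array. Differences were tested with limma on all 12257 genes and called at a Benjamini-Hochberg adjusted p under 0.05, two-sided. At 1 h Hspa1b differed by 0.49 ± 0.14 (SE, 2 arrays against 1) and missed the threshold (adjusted p = 0.410). At 3 h it was 1.54 ± 0.14 and passed (adjusted p = 1.78e-05). The R848 controls at 3 h are also a side of the apilimod contrast on which the gene was chosen. Results that use them, including the change from 3 h to 7 h, are therefore not independent of that choice. At 7 h the Hspa1b difference was -0.04 ± 0.14 (adjusted p = 0.878). At 22 h it was -1.74 ± 0.14 and passed in the other direction (adjusted p = 3.70e-06). The other probe sets moved alike, by 1.61 and 1.56 at 3 h and by -1.15 and -1.40 at 22 h, all passing, although both were at or below 14.4 at 22 h in the R848 controls, under the floor. The change of the difference between hours was itself beyond the spread, at -1.57 ± 0.20 from 3 h to 7 h and -1.70 ± 0.20 from 7 h to 22 h, when 3.92% and 15.1% of all genes were called downward.

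Apilimod was compared with the same R848 controls at matched hours, so this comparison and the R848 comparison share control arrays. At 1 h the Hspa1b difference was 0.05 ± 0.14 (adjusted p = 1.00). At 3 h it was -3.47, the description on which the gene was chosen, with the other probe sets lower too, though at 10.1 and 16.03 on the apilimod array both were under the floor there. At 7 h R848+apilimod was lower by a difference of -1.41 ± 0.14 (limma, adjusted p = 2.19e-05), and the other probe sets gave -1.39 and -1.44, both passing. At 22 h the sign was opposite, at 1.11 ± 0.14 (adjusted p = 0.000115), and the other probe sets gave 0.54 and 0.52, both passing. At 22 h the apilimod array (74.2) lay between the R848 controls (24.9 and 26.7) and medium (123). On the other probe sets the R848 controls at 22 h were at or below 14.4, under the floor, and R848+apilimod was at 24.2 and 24.3, little above it. The change of the apilimod difference from 7 h to 22 h was 2.52 ± 0.20 (adjusted p = 1.72e-05), when 11.3% of all genes were called upward.

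Among all 7 genes, R848 called none at 1 h, when 0.702% of all genes passed. At 3 h it called 2 of 7, Hspa1b higher and Dnajb1 lower, against 6.23% of all genes called higher, 9.19% lower and 15.4% in either direction. At 7 h it called 1 of 7, Bag3, higher, against 11.3% of all genes higher and 29.8% in either direction. At 22 h it called 3 of 7, all lower (Hspa1b, Hspa8 and Hsph1), against 29.1% of all genes called lower and 45.7% called in either direction, so the count at 22 h is near the background. The median of the 7 differences was 0.06, 0.00, 0.09 and -0.21 at the 4 hours, against -0.01, -0.03, -0.04 and -0.03 over all genes tested. Where arrays were centred on their median, the all-gene split at 22 h went from 2027 higher and 3570 lower to 4505 higher and 2319 lower, and with quantile normalization to 3246 higher and 2979 lower. Under centring Hspa1b, Hspa8 and Hsph1 stayed lower (-1.51, -0.36 and -0.57) and Hsp90aa1 (0.37) and Hspb1 (0.60) were called higher. Centring also moved the split from 764 higher and 1127 lower to 1109 and 945 at 3 h, and from 1389 and 2262 to 1959 and 2003 at 7 h.

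Apilimod called none of 7 at 1 h, where 0 of 12257 genes passed (165 at an unadjusted p under 0.05 with limma, smallest adjusted p 0.115). At 3 h, the contrast on which Hspa1b was chosen, no call is given for the 7 genes, and 9.19% of all genes passed. At 7 h 2 of 7 were lower (Hspa1b and Bag3), against 9.81% of all genes lower and 19.6% in either direction. At 22 h 1 of 7 was higher (Hspa1b), against 20.2% higher and 34.5% in either direction. The median of the 7 differences was 0.00, -0.04, -0.23 and -0.02, against 0.00, -0.03, -0.02 and 0.03 over all genes. Bulk RNA does not separate a change in each cell from a change in the share of cells that carry the transcript, here as throughout.

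**Figure D2:**
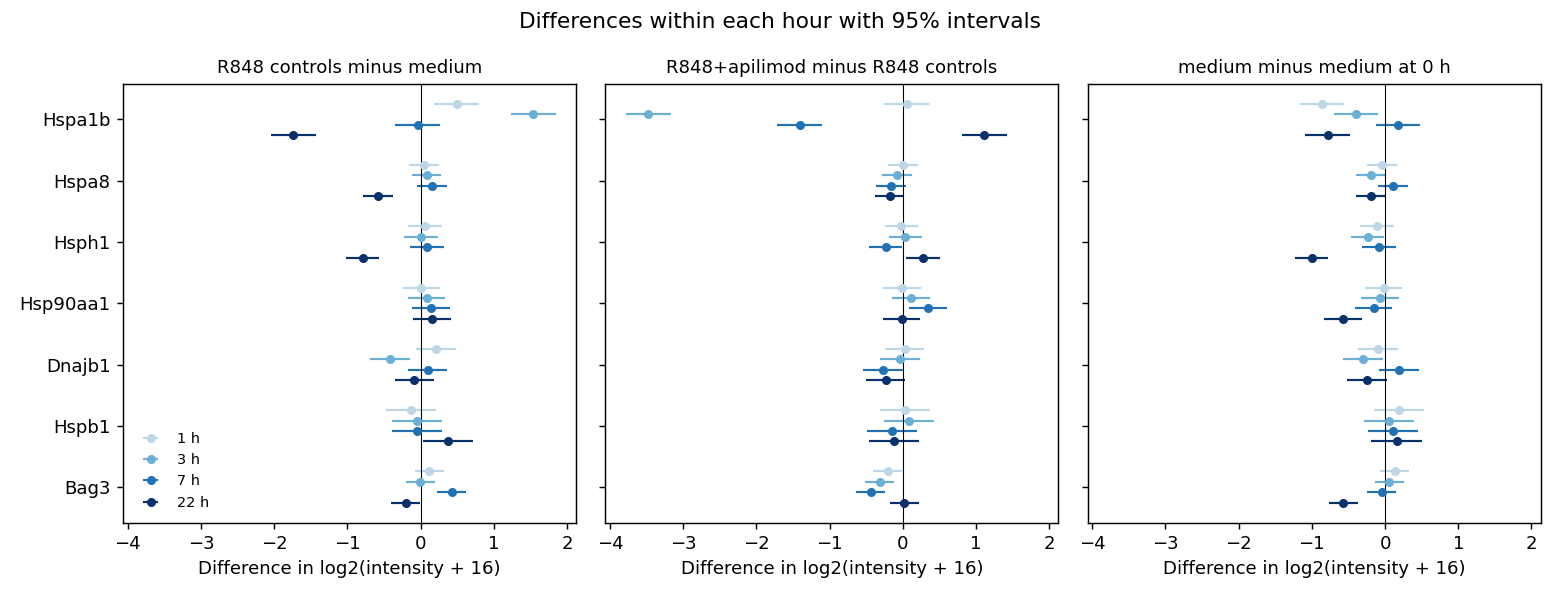
Log2 differences with 95% intervals for the 7 genes in 3 panels: R848 controls minus medium, R848+apilimod minus R848 controls, and medium minus medium at 0 h, by hour. On the chosen probe sets Hspa1b spans 1.54 to -1.74 in the first panel and -3.47 to 1.11 in the second, while the other genes lie much nearer 0 in those panels. The Hspa1b value of -3.47 is a description, and its interval is not read as a test. In the third Hsph1 is lowest at 22 h, at -1.002, beside -0.78 for Hspa1b.

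Hspa8, the constitutive HSP70, was at 13065 and 12783 in medium at 0 h and between 11270 and 13965 in medium later. With R848 it was at 13122, 11759, 15223 and 7949 at 1 h, 3 h, 7 h and 22 h, and with R848+API09 at 12811, 12075, 15798 and 7129. With R848+apilimod it was at 12967, 11252, 13847 and 6637. All 3 stimulated arrays at 22 h were below all medium arrays, and both R848 controls at 7 h were above all of them. The R848 difference at 22 h was -0.59 ± 0.09 (limma, adjusted p = 0.000431), and its change from 7 h to 22 h was -0.74 ± 0.13. The probe sets did not move alike: at 22 h the next brightest gave -0.25 ± 0.12 and the third -0.28 ± 0.14, neither passing. The dimmest Hspa8 probe set was at 95.04 in medium at 7 h, 204 with R848, 234 with R848+API09 and 167 with R848+apilimod, and its R848 difference of 1.08 ± 0.17 at 7 h passed (adjusted p = 0.00102), which that of the chosen probe set did not. The apilimod difference at 22 h also depended on the probe set, at -0.18 ± 0.09 for the chosen one (adjusted p = 0.159), against -0.63 ± 0.12 (adjusted p = 0.00211) and -0.45 ± 0.14 (adjusted p = 0.0317) for the next bright ones and 0.25 ± 0.17 (adjusted p = 0.338) for the dimmest.

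Hsph1, the HSP110 exchange factor, was at 1705 and 1692 in medium at 0 h and at 1572, 1438, 1606 and 840.1 in medium at 1 h, 3 h, 7 h and 22 h. With R848 it was at 1654, 1440, 1614 and 513, with R848+API09 at 1620, 1446, 1797 and 446, and with R848+apilimod at 1615, 1478, 1446 and 581. Every array at 22 h was below every earlier array, and among those at 22 h medium was highest. The R848 difference at 22 h was -0.79 ± 0.10 (adjusted p = 0.000121), and the other probe set gave -0.78 ± 0.15. With apilimod the 22 h difference of 0.27 ± 0.10 missed the threshold (adjusted p = 0.0630). Against the R848+API09 array alone it was 0.37 and passed (adjusted p = 0.00647), and against the R848 array alone it was 0.18 and did not (adjusted p = 0.144).

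Bag3, the HSP70 exchange factor that links it to selective autophagy, was at 327 and 323 in medium at 0 h and at 358, 339, 315 and 214 at the later hours. With R848 it was at 399, 354, 429 and 181, and with R848+API09 at 379.5, 320.4, 428 and 186. With R848+apilimod it was at 336, 267, 312 and 186. At 7 h both R848 controls stood above all medium arrays, while R848+apilimod was beside medium. The R848 difference at 7 h was 0.43 ± 0.09 (limma, adjusted p = 0.00396) and fell away by 22 h, the change being -0.63 ± 0.13. The apilimod difference at 7 h was -0.44 ± 0.09 (adjusted p = 0.00472), and it was -0.44 against each control taken alone. At 3 h it was -0.32, given as a description. At 22 h the 3 stimulated arms lay at 181 to 186.

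Dnajb1, the J-protein that pairs with inducible HSP70, was at 588 and 602 in medium at 0 h and at 555, 481, 681 and 500.0 later. With R848 it was at 627, 351, 668 and 511, with R848+API09 at 663, 360, 792 and 431, and with R848+apilimod at 657, 345, 599 and 397. At 3 h all 3 stimulated arrays were below all medium arrays, whereas for Hspa1b the R848 controls were above them and R848+apilimod was below. The R848 difference at 3 h was -0.42 ± 0.12 (adjusted p = 0.0394), a call lost under 11 of 19 alternatives, among them leaving out any one of 6 arrays: either medium array at 0 h, either R848 control at 1 h or either at 3 h. The adjusted p ranged from 0.0103 to 0.149 over them. The other Dnajb1 probe set gave -0.71 ± 0.19 at 3 h (adjusted p = 0.0357) but parted from the first at 22 h. There it was at 465 in medium, 114 with R848, 68.6 with R848+API09 and 62.8 with R848+apilimod, a difference of -2.20 ± 0.19 (adjusted p = 9.95e-06), against -0.09 ± 0.12 for the chosen probe set. The files do not say which part of the transcript each probe set reads, so a Dnajb1 level at 22 h depends on the probe set.

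**Figure D3:**
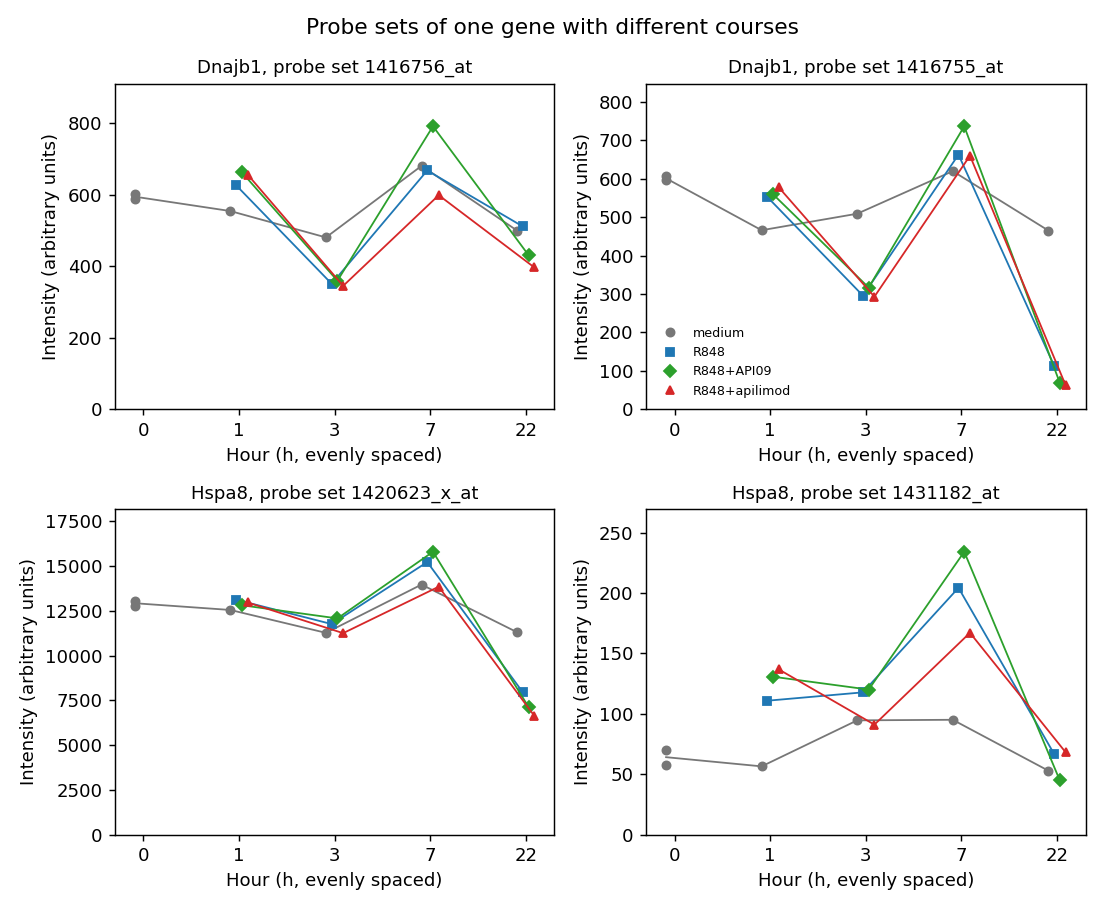
Intensity by hour and arm (linear axis) for Dnajb1 and Hspa8 probe sets, 1 point per array. At 22 h the second Dnajb1 probe set is at 62.8 to 114 in the stimulated arms and 465 in medium, while the chosen one is at 397 to 511 in all arms.

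Hsp90aa1, the inducible cytosolic HSP90, was at 6801 and 6630 in medium at 0 h and at 6619, 6409, 6031 and 4516 later. With R848 it was at 6760, 7014, 7298 and 5264, with R848+API09 at 6567, 6556, 6062 and 4778, and with R848+apilimod at 6598, 7332, 8461 and 4956. At 7 h R848+apilimod held the highest value of all 18 arrays, and at 22 h every arm was below all earlier arrays. No R848 difference passed at any hour. The apilimod difference at 7 h was 0.35 ± 0.12 and did not pass (adjusted p = 0.0620). Against R848+API09 alone it was 0.48 ± 0.11 and passed (adjusted p = 0.0170), and against R848 alone it was 0.21 ± 0.11 and did not (adjusted p = 0.308). The probe sets disagreed here: the next brightest gave 0.19 ± 0.09 and the third 0.09 ± 0.11 against the R848 controls, neither passing, and on the third R848+API09 at 7 h (5832) was above R848+apilimod (5708).

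Hspb1, the small heat shock protein, was dim, at 37.7 to 81.1 over the 18 arrays and 40.3 to 50.8 in medium. It reached 81.1 with R848+API09 at 22 h, on the array that stood apart in brightness. Its part in that value was not tested. No difference passed. The R848 difference at 22 h was 0.38 ± 0.15 (adjusted p = 0.0682), and it passed after quantile normalization (0.61) and after centring (0.60).

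**Figure D4:**
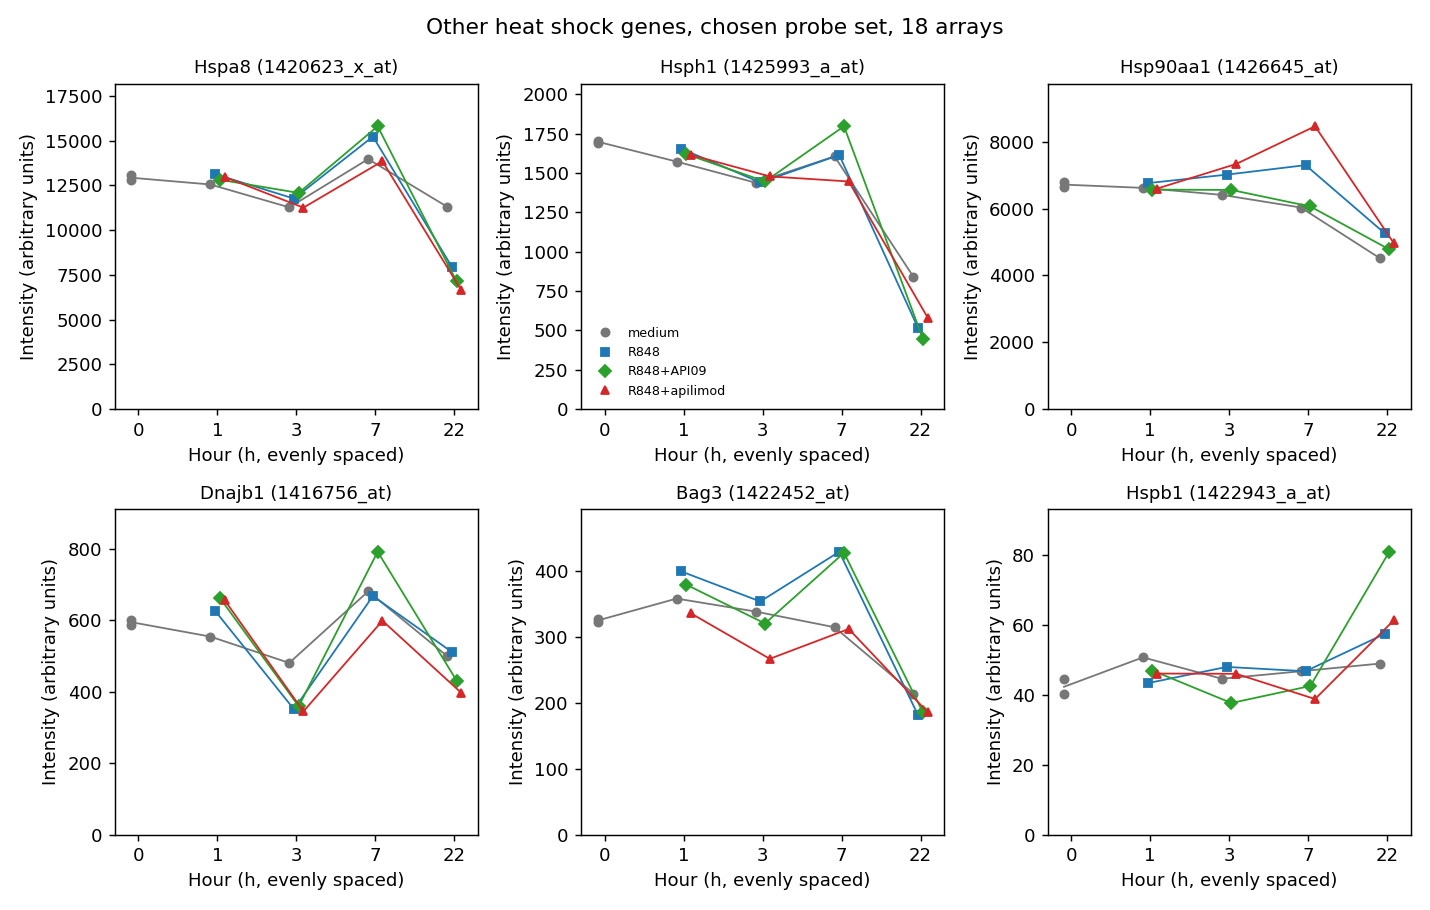
Intensity by hour (evenly spaced) for Hspa8, Hsph1, Bag3, Dnajb1, Hsp90aa1 and Hspb1, 1 panel per gene, 1 point per array and 1 line per arm. Hspa8 and Hsph1 are lowest at 22 h in the stimulated arms (6637 to 7949 and 446 to 581), and Bag3 at 7 h is at 428 and 429 in the R848 controls and 312 with apilimod.

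In medium alone, 4 of the 7 genes were lower at 22 h than at 0 h, against 10.8% of all genes called lower. They were Hsph1 (-1.002 ± 0.10, limma adjusted p = 0.000117), Hspa1b (-0.78 ± 0.14, adjusted p = 0.00288), Hsp90aa1 (-0.57 ± 0.12, adjusted p = 0.00592) and Bag3 (-0.57 ± 0.09, adjusted p = 0.00152). The second Hsph1 probe set gave -1.06 ± 0.15 (adjusted p = 0.00130). The median of the 7 differences was -0.57, against 0.01 over all genes. At 1 h Hspa1b alone of the 7 was lower (-0.86 ± 0.14, adjusted p = 0.0249), against 0.147% of genes called lower. That call was lost under 8 of 19 alternatives, among them leaving out either medium array at 0 h (adjusted p = 0.216 and 0.108) or either R848 control at 1 h (0.0563 for each), with adjusted p from 0.00692 to 0.216 over all alternatives. At 3 h and 7 h none of the 7 passed, beside 0.971% and 0.343% of all genes. The 22 h medium level is also the reference of the R848 comparison at 22 h, so the falls of Hspa1b and Hsph1 with R848 are below a level that had itself fallen since 0 h.

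Apilimod and API09 were compared at the same dose and hours. For Hspa1b, apilimod minus API09 was 0.12 at 1 h, -3.39 at 3 h, -1.58 at 7 h and 1.08 at 22 h. Taken with the single API09 array as control, the 7 h difference was -1.58 ± 0.13 (95% interval -1.87 to -1.29, adjusted p = 2.27e-05) and the 22 h difference 1.08 ± 0.16 (0.73 to 1.44, adjusted p = 0.000433). The R848 array as control gave -1.24 ± 0.13 and 1.14 ± 0.16. API09 minus R848 was -0.13, -0.17, 0.34 and 0.06 for Hspa1b at the 4 hours, each from 1 array against 1. Over all hours, with hour as a block and 4 arrays an arm, none of the 7 genes passed in any of the 4 pairs of arms compared. Among all genes 0.995% passed for R848 against medium and 0 passed in each of the other pairs (1613, 182 and 1588 at an unadjusted p under 0.05 with limma for apilimod against API09, API09 against R848 and apilimod against R848). Hspa1b differed by -0.94 ± 0.62 between apilimod and API09 (95% interval -2.28 to 0.40, adjusted p = 0.558), with opposite signs at 7 h and 22 h. API09 differed from R848 by 0.02 for Hspa1b (-1.31 to 1.36), an interval too wide to show that they act alike. For the other 6 genes that difference was between -0.14 and 0.03.

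Across the 18 arrays Hspa8, Hsph1 and Bag3 had similar courses, with Pearson r of 0.92 for Hspa8 with Hsph1, 0.92 for Hsph1 with Bag3 and 0.89 for Hspa8 with Bag3. Hspa1b with Dnajb1 gave 0.20 on the chosen probe sets, though the other Dnajb1 probe set parted from the chosen one at 22 h. Hspb1 was negative with each of the other genes (-0.28 to -0.84). These are descriptions: the arrays share arms and hours, and the values share each array's brightness. The genes with the course most like Hspa1b's were Sema6d (0.901), Spata13 (0.844), Mettl2 (0.843), Cdc37 (0.842) and Tmem229b (0.835). Those most like Hspa8's were Acin1 (0.983), Dnaja1 (0.977), Wdr3 (0.969), Zfp638 (0.968) and C1galt1c1 (0.964). Cdc37 encodes a kinase-loading partner of HSP90, and Dnaja1 a J-protein that works with HSP70.

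The other cytosolic chaperones give the setting. Of 10 J-proteins measured besides Dnajb1, 1 rose with R848 at 3 h, against 6.23% of all genes higher. It was Dnajb4 (0.74 ± 0.11, limma adjusted p = 0.000868), a J-protein close to Dnajb1. At 22 h 5 of 10 fell and none rose, against 29.1% of all genes lower, among them Dnajc7 (-1.36), Dnajc5 (-0.95), Dnajb6 (-0.78) and Dnaja1 (-0.60), and the list's median was -0.26. With arrays centred, which raised the median gene by 0.22 in that comparison, these 4 were still called lower, 2 others were called higher and the list's median was -0.04. With apilimod at 3 h Dnajb4 was at -1.63 relative to the R848 controls, as Hspa1b was low there, while the median of the 10 J-proteins was 0.00. At 22 h 4 of 10 J-proteins were higher with apilimod and none lower, against 20.2% of all genes higher: Dnajb2 (0.62), Dnajc7 (0.55), Dnajb6 (0.42) and Dnajc5 (0.42). Centring gave 4 higher and 1 lower.

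Of 12 other genes of the HSP70 and HSP110 families and their exchange factors, 2 fell with R848 at 3 h, against 9.19% of all genes lower, and 4 at 7 h, against 18.5% lower, with none higher at either. They were Bag2 (-0.75 and -0.95) and Hspa4l (-0.44 and -0.47) at both hours, and Hspa14 (-0.80) and Stub1 (-0.61) at 7 h. Bag2 and Stub1 encode an exchange factor and the HSP70-linked ubiquitin ligase CHIP. At 22 h 1 was higher, Hspa4l (1.45), against 16.5% of all genes. The 3 lower were Bag5 (-0.68), Bag4 (-0.63) and Bag2 (-0.49), near the 29.1% of all genes lower. With centring 6 were higher and 3 lower. With apilimod Hspa4l alone was higher at 7 h (0.61), against 9.81% of all genes. At 22 h 3 of 12 were lower with apilimod, against 14.3% of all genes, among them Hspa14 (-0.77) and Bag2 (-0.38).

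Of 7 HSF family members and HSP90 partners, 2 were lower with R848 at 7 h, near the 18.5% of all genes: Fkbp4 (-0.45) and Ahsa1 (-0.29), the latter not passing with centring. None passed at 3 h or 22 h, beside 15.4% and 45.7% of all genes. At 22 h, however, centring called 3 higher and quantile normalization 3 higher and 3 lower. Apilimod lowered Fkbp5 (-0.54) at 7 h, and at 22 h Fkbp5 (-0.38) and Ahsa1 (-0.29) were lower and Hsbp1 (0.33), an HSF1-binding protein, higher. Among all genes 9.81% were lower with apilimod at 7 h, and 14.3% lower and 20.2% higher at 22 h. Of 5 small heat shock proteins, Hspb6 was lower (-0.74) with R848 at 7 h, near the 18.5% of all genes. Hspb11 was higher (0.70) with R848 at 22 h, near the 16.5% of all genes, and both were higher with apilimod at 22 h (0.80 and 0.55). None of the 8 subunits of the cytosolic chaperonin CCT passed with R848 at any hour, beside 45.7% of all genes at 22 h, though centring called 3 higher there. With apilimod 1, Cct6a (-0.34), was lower at 22 h.

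In the other compartments, 3 of 8 mitochondrial chaperones were called lower with R848 at 22 h, near the 29.1% of all genes: Dnaja3 (-0.32), Trap1 (-0.31) and Hspd1 (-0.31). With centring none was lower and 2 were higher. With apilimod 2 of 8 were higher at 7 h, against 9.81% of all genes: the protease-chaperone Lonp1 (0.79) and the mitochondrial HSP70 Hspa9 (0.31). At 22 h 2 were higher with apilimod, Lonp1 (0.50) and Dnaja3 (0.50), near the 20.2% of all genes. Of 12 endoplasmic reticulum chaperones, 7 were called lower and none higher with R848 at 22 h, against 29.1% of all genes lower. Among them were Dnajc3 (-0.46), Pdia6 (-0.42) and Calr (-0.40), but the direction depended on the scaling. Quantile normalization also gave 7 lower, whereas centring gave none lower and 1 higher, and the list's median went from -0.29 to -0.07. With apilimod 6 of 12 were higher and none lower at 22 h, against 20.2% of all genes higher (5 with quantile normalization and 4 with centring), among them Dnajb9 (0.65), Dnajc3 (0.54) and Hspa5 (0.48), with a list median of 0.26.

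Of 7 other textbook HSF1 targets measured, most of which also respond to oxidants or metals, R848 raised 2 at 3 h, Mt2 (1.11) and Ier5 (0.61), against 6.23% of all genes higher, and 5 at 7 h, against 11.3%, among them Mt2 (2.64), the haem oxygenase Hmox1 (1.64), Mt1 (1.01) and the HSP90 partner Chordc1 (0.56). At 22 h 3 were higher and 2 lower, against 16.5% of all genes higher and 29.1% lower, and with centring 4 were higher and none lower. Relative to the R848 controls, the list's median with apilimod at 3 h was 0.15, against -0.03 over all genes, given as a description. At 7 h apilimod gave Hmox1 higher (1.89) and Mt2 (-1.47) and Mt1 (-0.58) lower, against 9.81% of all genes in each direction. At 22 h Ier5 was higher (0.67) and Chordc1 (-0.41) and Mt2 (-0.41) lower, against 20.2% of all genes higher and 14.3% lower. The stimulus itself was visible at 3 h in Il1b (7.25), Cxcl2 (6.50) and Tnf (4.54) with R848.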

How the data were processed

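RNA was extracted from RAW cells (Qiagen RNeasy), amplified and labelled with NuGEN Ovation, per the labels' protocols, and hybridised to Affymetrix mouse arrays. The authors' deposited table holds 1 intensity per probe set and array on a linear scale, as the values show. The submitters' processing notes name limma without a version or role. The background correction, summarisation and normalization remain not given in the sources used. From the deposited intensity values, log2(intensity + 16) was computed, with no further normalization. Probe sets with 1 gene symbol (34945 of 45101; 932 had several) were kept where above 18.1 on at least 3 arrays.

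The 18 arrays were fitted with limma 3.58.1 in R 4.3.3 (lmFit, eBayes, Benjamini-Hochberg adjusted p under 0.05, two-sided), with a mean for each arm and hour, except that each hour's R848 and R848+API09 arrays shared 1. Spread therefore came from 5 pairs of arrays: those 4 and the medium pair at 0 h. Those 4 hold different treatments, so any effect of API09 enters both the spread and the pooled mean. Over genes, the log2 difference within a pair had a standard deviation of 0.22 at 22 h, against 0.09 to 0.13 in the other pairs. The fit used 1 spread per gene for all hours. A second fit had arm and hour terms. The method was tested on simulated data. The number of arrays limits the precision.

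All 9 heat shock genes were named by rule, with up to 4 genes of each chaperone list that had the largest differences and the 5 genes with the highest correlation to Hspa1b and to Hspa8. The members and lists were chosen with earlier results of these data known. Alternatives were quantile normalization, median centring, a pseudocount of 1, no filter or a stricter one (75th percentile), other treatment of probe sets, trend with robust eBayes, a minimum difference of 1, leaving out arrays or hours, no hour block and fewer samples in the fit. The scalings were also applied to the other chaperone lists, a choice made after seeing the data. Sequences come from RefSeq on GRCm38.p6. Figures were drawn with matplotlib 3.10.9.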

Additional observations from a re-analysis of the deposited data

Results flagged for a closer look

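The size of several differences depended on the hour, by a test of the change between hours itself (limma, Benjamini-Hochberg adjusted over 12257 genes). For R848 controls against medium, Hspa1b changed from 3 h to 7 h by -1.57 ± 0.20 (adjusted p = 0.000713) and from 7 h to 22 h by -1.70 ± 0.20 (adjusted p = 0.000194). From 7 h to 22 h the R848 difference also changed for Hsph1 by -0.88 ± 0.15 (adjusted p = 0.00166), for Hspa8 by -0.74 ± 0.13 (adjusted p = 0.00231) and for Bag3 by -0.63 ± 0.13 (adjusted p = 0.00456). All 4 of these changes from 7 h to 22 h were downward, against 15.1% of all genes called downward. The Hspa8 change is that of the chosen probe set, and the R848 difference at 22 h did not pass on the next bright Hspa8 probe sets. From 3 h to 7 h Hspa1b was 1 of 7, against 3.92% of all genes called downward. That change uses the R848 controls at 3 h, a side of the contrast on which Hspa1b was chosen. Of all genes 1264 moved upward and 1852 downward from 7 h to 22 h, a split that was 2331 and 1711 after quantile normalization and 2339 and 1534 after centring.

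For R848+apilimod against the R848 controls, the change from 7 h to 22 h was 2.52 ± 0.20 for Hspa1b (adjusted p = 1.72e-05), 0.51 ± 0.15 for Hsph1 (adjusted p = 0.0327) and 0.46 ± 0.13 for Bag3 (adjusted p = 0.0286), 3 of 7 genes upward against 11.3% of all genes. The R848 controls at 7 h and 22 h enter both sets of changes with opposite sign. The Hsph1 change was lost when the medium array at 0 h of either number, an R848 control at 1 h or 3 h, or the R848+API09 array at 7 h was left out (adjusted p up to 0.0994), with a pseudocount of 1 (0.0549) and with the mean over probe sets (0.0623), and the other Hsph1 probe set did not pass (0.49 ± 0.21, adjusted p = 0.160). The Bag3 change was lost when either medium array at 0 h or either R848 control at 7 h was left out (adjusted p up to 0.0684). Quantile normalization and centring also ended the Bag3 call (adjusted p = 0.0735 and 0.0969).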

How the results depend on the processing

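With 1 array per arm and hour, the spread rests on 5 pairs of arrays, and apart from medium at 0 h no array can be checked against another of its own arm and hour. Hspa1b kept its direction and its side of the threshold under all 19 alternatives with R848 at 3 h (1.45 to 1.62) and 22 h (-2.22 to -1.43) and with apilimod at 7 h (-1.58 to -1.24) and 22 h (0.72 to 1.49), and no called difference reversed. Counts of the 7 genes called that moved by over 1.5 times were as follows, leaving aside apilimod at 3 h, which is described without a test. For R848 at 3 h (2) the count was 1 with centring, pseudocount 1, no filter, every probe set as a row and a minimum difference of 1. For R848 at 7 h (1) it was 2 with centring, the mean over probe sets and trend with robust estimation, and 0 with the minimum difference. For R848 at 22 h (3) it was 5 with centring and 1 with the minimum difference. For apilimod at 7 h (2) it was 4 with trend and robust estimation and 1 with the minimum difference. For apilimod at 22 h (1) it was 2 with quantile normalization, centring, the stricter filter and the mean over probe sets, and 3 with trend and robust estimation. For medium at 1 h (1) it was 0 with centring, pseudocount 1, no filter and the minimum difference, and for medium at 22 h (4) it was 1 with the minimum difference. For the changes between hours it was 2 in place of 1 (R848, 7 h minus 3 h, no filter and stricter filter), and with the minimum difference 1 in place of 4 (R848, 22 h minus 7 h) and 1 in place of 3 (apilimod). Smaller moves were 4 in place of 3 for R848 at 22 h (quantile normalization, mean over probe sets), 5 in place of 4 for medium at 22 h (trend and robust estimation) and for the R848 change from 7 h to 22 h (mean over probe sets), and 2 (quantile normalization, centring, pseudocount 1, mean over probe sets) or 4 (trend and robust estimation) in place of 3 for the apilimod change. Leaving out 1 array gave 1 to 2 for R848 at 3 h, 3 to 4 at 22 h, 2 to 4 and 1 to 3 for apilimod at 7 h and 22 h, 0 to 1 and 4 to 5 for medium at 1 h and 22 h, and 1 to 3, 4 to 5 and 1 to 3 for the changes. The apilimod count at 7 h was 4 without the R848 or the R848+API09 array at 22 h. Genes called over all 12257 ranged from 365 to 3032 for R848 at 3 h (1891), 860 to 10238 at 22 h (5597), 552 to 4031 for apilimod at 7 h (2406) and 614 to 6910 at 22 h (4232), and for apilimod against API09 over all hours up to 545 (0). They ranged from 53 to 139 for R848 at 1 h (86), 698 to 5886 at 7 h (3651), 272 to 1870 for apilimod at 3 h (1126), 15 to 204, 20 to 353, 2 to 200 and 156 to 4315 for medium at 1 h, 3 h, 7 h and 22 h (50, 119, 42 and 2696), 270 to 1927, 686 to 5538 and 586 to 4573 for the changes (947, 3116 and 2458), 11 to 1164 for R848 against medium over all hours (122), and up to 481 for apilimod against R848 over all hours (0). No paired analysis was possible because only the medium arrays at 0 h have replicate numbers, so the groups compared share fewer than 2, and arms were matched by hour only. The cause of these differences was not tested.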
